A study of Mus musculus with 6 samples.

Results

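The Notch receptors Notch1, Notch2, Notch3 and Notch4, the ligands Jag1, Jag2, Dll1 and Dll4 and the target genes Hes1 and Hey1 were examined in mouse ectopic endometriotic lesions with and without deletion of Dnmt3a, the de novo DNA methyltransferase. These 10 genes were chosen by name, from their known place in the pathway, out of 56884 gene identifiers in the count table. Earlier results of these data were known when the choice was made. Ectopic lesions are pieces of uterus that grow outside the uterine cavity after transfer to another mouse, a model of endometriosis. RNA sequencing was performed on 3 Dnmt3a knockout (KO) lesions from Dnmt3a f/f:PR Cre/+ female donors and 3 wild-type (WT) control lesions from Dnmt3a f/f female donors, with a separate donor for each lesion. Both groups therefore carried floxed Dnmt3a alleles, and only the KO donors carried the Cre allele, so that loss of Dnmt3a and presence of the Cre allele cannot be told apart here. Donors were 8 weeks old. By the study's methods, donors of both genotypes were injected with estradiol daily for 3 days before their uteri were taken. The wild-type female recipients, of the same age and described as syngeneic (genetically matched), had received estrogen pellets before the transfer. Cre was expressed from the progesterone receptor locus and acts in progesterone receptor-expressing cells, while vessels, immune cells and other cells that entered from the recipient kept Dnmt3a. The labels give a time of 4 weeks and describe injected uterine fragments, whereas the study's methods describe fragments fixed in place by suture and collected at day 21.

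Notch receptors are membrane proteins that are activated by Jagged and Delta-like ligands on a neighboring cell. Ligand binding leads to proteolytic release of the receptor's intracellular domain, which enters the nucleus, joins the DNA-binding protein Rbpj and activates targets of the Hes and Hey families of transcriptional repressors. Notch signaling patterns blood vessels and their mural cells, guides lymphocyte development and takes part in the decidual response of the endometrial stroma.

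The libraries held between 45370342 and 57239184 counts, so sequencing depth was similar in both groups. Dnmt3a, the deleted gene, was at 52.7, 43.9 and 51.7 CPM (gene counts scaled to a common library size) in WT lesions and at 30.3, 33.5 and 36.2 CPM in KO lesions. All KO values lay below all WT values, with a log2 fold change of -0.57 (SE 0.14), an unadjusted p of 0.00584 and an adjusted p of 0.321 by the quasi-likelihood test of edgeR (adjusted after Benjamini and Hochberg). By the DESeq2 Wald test the log2 fold change was -0.58 (SE 0.16) with an adjusted p of 0.00685. The tissue was checked against its defining markers. Hoxa10, a uterine homeobox gene, ranged from 20 to 34.5 CPM in the WT group and from 28.8 to 52.8 CPM in the KO group, whereas Foxa2, a marker of uterine glands, was at 2.62 CPM or less in every library and at 0 in KO replicate 3. Several libraries stood apart in RNA of other tissues. Skeletal muscle markers summed to 35200 and 37500 CPM in WT replicates 1 and 3 but to 20.7 CPM or less in the other 4 libraries, where Myh4, which encodes a fast muscle myosin, was at 0 in every KO lesion. Neutrophil markers reached 10000 CPM in WT replicate 2, against 229 and 498 CPM in the other WT lesions. The KO lesions had neutrophil sums of 92.6, 43.3 and 221 CPM. Every KO lesion was thus below every WT lesion in this sum, and 3 of 8 neutrophil markers were lower at an unadjusted p under 0.05. Pancreatic acinar markers reached 5050 CPM in WT replicate 3, with Prss2, a trypsinogen gene, at 0 in every other library. Of the other lists, 5 of 8 smooth muscle markers were higher in KO lesions and 4 of 6 B cell markers lower at an unadjusted p under 0.05. Macrophage sums were 1170 to 2730 CPM in the WT group and 550 to 1390 CPM in the KO group, adipocyte sums 1030 to 2920 and 669 to 4790 CPM, and mesothelial sums 556 to 763 and 411 to 809 CPM, while intestinal markers stayed at 4.23 CPM or less. Endothelial markers summed to 566, 665 and 563 CPM in WT lesions and to 387, 276 and 706 CPM in KO lesions. KO replicates 1 and 2 were thus below all WT lesions in endothelial markers and KO replicate 3 was above them.

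**Figure D1:**
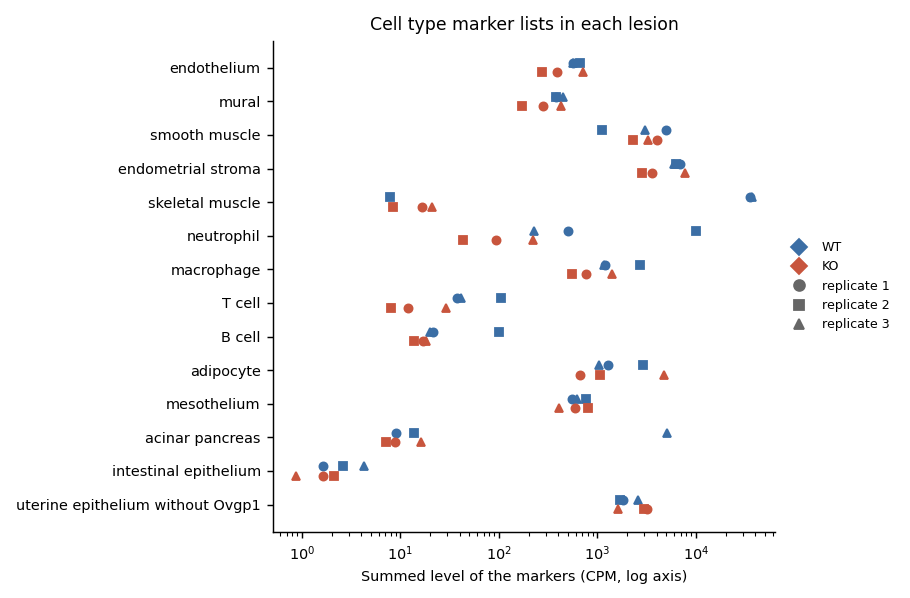
Summed level of each cell type marker list (CPM, log axis) in the 3 WT and 3 KO lesions, with 1 point per library and the marker shape giving the replicate. Skeletal muscle markers separate WT replicates 1 and 3 from all other libraries, and the endothelial sum of KO replicate 3 (706 CPM) sits above those of KO replicates 1 and 2 (387 and 276 CPM).

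To determine whether Notch gene levels differed between KO and WT lesions, all 10 genes were tested with the 18177 genes that passed the filter on low counts, and all 10 passed it. None of the 10 genes passed an adjusted p of 0.05 in edgeR's quasi-likelihood test, by which 0.0055% of all tested genes were called. At an unadjusted p under 0.05, Notch4 and Jag2 were lower in KO lesions, 2 of 10 genes against 8.16% of all tested genes, and 0 of 10 were higher against 6.55% (14.7% of all tested genes in either direction). With a log2 fold change beyond 1 required as well, 1 of 10 genes was called (Notch4, lower in KO lesions), against 5.85% of all tested genes called lower, 3.1% called higher and 8.96% called in either direction. By the DESeq2 Wald test, 1 of 10 genes passed an adjusted p of 0.05 (Jag2, lower in KO lesions), against 4.04% of all tested genes called lower, 2.23% called higher and 6.26% called in either direction. In Notch4 and Jag2, 2 of 10 genes, every KO value lay below every WT value, which was also the case for 8.74% of all tested genes, and 0 of 10 genes lay entirely above, against 10.7% (19.4% of all tested genes in either direction). The median log2 fold change over the 10 genes was -0.51, with 7 of 10 below zero, beside a median of 0.01 over all tested genes, of which 48.6% were below zero. Exons of Notch1, Notch3, Dll1 and Dll4 overlap genes on the opposite strand in the GENCODE M21 annotation, and with the strand setting of the counting not given in the sources used here, reads from such pairs may not have been told apart. As these are bulk samples, fewer cells of a type and less RNA per cell cannot be told apart.

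**Figure D2:**
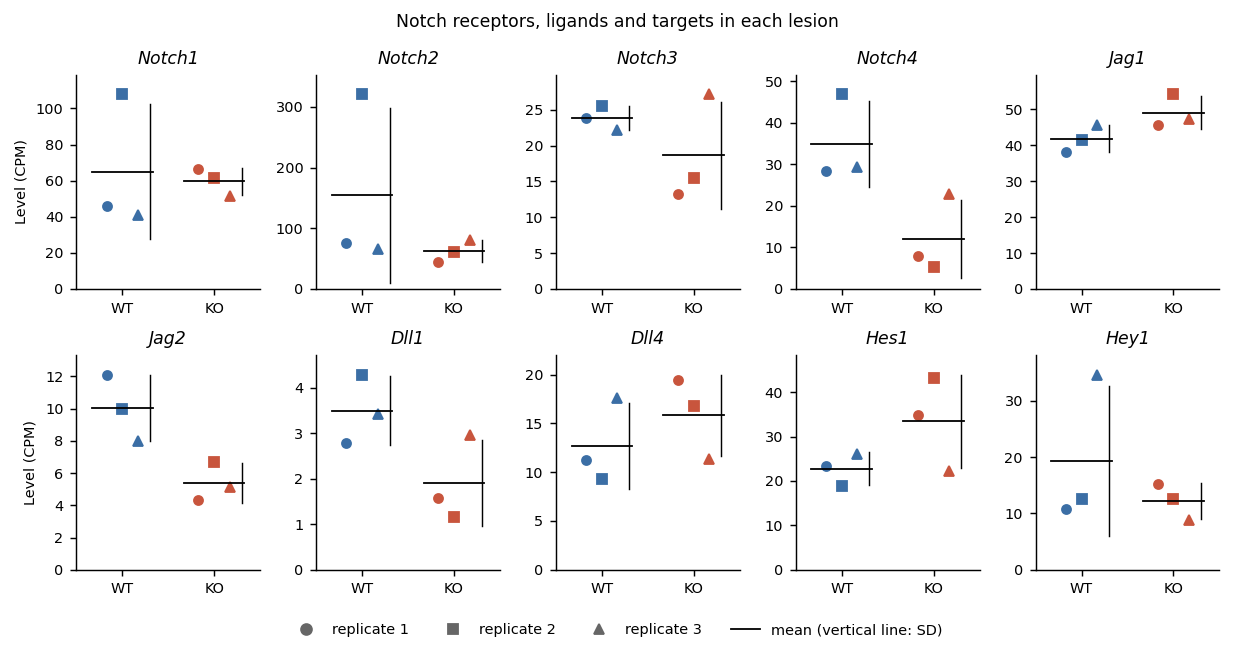
Level in CPM of each of the 10 Notch genes in the 3 WT and 3 KO lesions, with the group mean (horizontal line) and SD (vertical line). Notch4 and Jag2 show no overlap between groups, while the WT means of Notch1 and Notch2 are raised by WT replicate 2 (108 and 321 CPM).

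**Figure D3:**
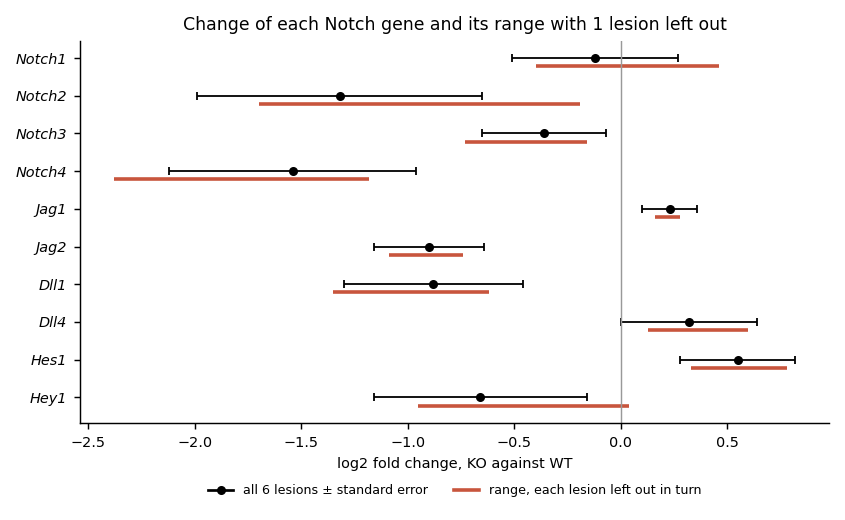
Log2 fold change of each Notch gene, KO against WT, with its standard error, and the range of the value when each library is left out in turn. The range crosses zero for Notch1 (-0.40 to 0.46) and Hey1 (-0.95 to 0.04), and stays on the same side of zero for the other 8 genes.

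Among the receptors, Notch4 had the largest fold change over all 6 libraries. Notch4, which is expressed mainly by endothelial cells, was at 28.4, 46.9 and 29.3 CPM in WT lesions and at 8, 5.32 and 22.8 CPM in KO lesions (34.9 ± 10.4 against 12 ± 9.39, mean ± SD, n = 3 each). KO replicates 1 and 2 were far below the WT lesions, and KO replicate 3 lay closer to the lowest WT value than to the other KO lesions. The log2 fold change was -1.54 (SE 0.58), with an unadjusted p of 0.0374 and an adjusted p of 0.332 (edgeR quasi-likelihood). Leaving out single libraries moved it between -2.38, without KO replicate 3 (unadjusted p = 0.00116), and -1.18, without KO replicate 2 (unadjusted p = 0.0759). When any library other than KO replicate 3 was left out, the unadjusted p was between 0.0554 and 0.118. T cell markers also separated the groups, with sums of 37.4 to 104 CPM in the WT group, 8.1 to 29 CPM in the KO group and 7 of 8 markers lower at an unadjusted p under 0.05. The stromal marker sum was 6890, 6220 and 5980 CPM in the WT group and 3570, 2810 and 7800 CPM in the KO group. KO replicate 3 was again apart from the other KO lesions in this sum, although 0 of the 10 stromal markers were lower and 2 were higher at an unadjusted p under 0.05, Hoxa11 and Hand2, both transcription factor genes of the uterine stroma. The part of T cells and stroma in the Notch4 difference was not tested.

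Notch1, the receptor used in both endothelium and lymphocytes, was at 46.2, 108 and 40.7 CPM in WT lesions and at 66.3, 61.3 and 51.6 CPM in KO lesions. WT replicate 2 was above every KO lesion and the other WT lesions were below every KO lesion. The log2 fold change was -0.12 (SE 0.39, adjusted p = 0.895 in edgeR) and became 0.46 without WT replicate 2 (unadjusted p = 0.0309), so its direction rested on this library. Notch2, which is required for marginal zone B cells and is broadly expressed, was at 75.4, 321 and 65.7 CPM in WT lesions and at 44.2, 60.9 and 80.5 CPM in KO lesions. The WT replicate with 321 CPM again stood alone, and the remaining WT values lay within the KO range. The log2 fold change of -1.32 (SE 0.67, adjusted p = 0.384 in edgeR) shrank to -0.19 without WT replicate 2 (unadjusted p = 0.512). In that library the neutrophil marker sum was 10000 CPM and the B cell sum 99.3 CPM, against at most 498 and 21.5 CPM in any other library, and their part in the Notch2 value was not tested.

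Notch3, a receptor of vascular smooth muscle and pericytes, was at 23.9, 25.5 and 22.2 CPM in WT lesions and at 13.2, 15.5 and 27.2 CPM in KO lesions. The groups overlapped because KO replicate 3 had the highest value of all 6 libraries. Over all libraries the log2 fold change was -0.36 (SE 0.29, adjusted p = 0.561 in edgeR), and without KO replicate 3 it was -0.73 (unadjusted p = 0.00511). Mural cell markers followed a similar division, with sums of 283 and 171 CPM in KO replicates 1 and 2 but 429 CPM in KO replicate 3, against 375 to 450 CPM in WT lesions, and 1 of 8 markers was lower at an unadjusted p under 0.05.

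Among the ligands, Jag2 was lower in each KO lesion than in any WT lesion. Jag2, a Jagged ligand found in epithelia and endothelium, was at 12.1, 10 and 8.01 CPM in WT lesions and at 4.3, 6.71 and 5.13 CPM in KO lesions (10 ± 2.05 against 5.38 ± 1.23, n = 3 each). The lowest WT value lay above the highest KO value, and KO replicate 3 was not apart from the other KO lesions. The log2 fold change was -0.9 (SE 0.26), with an unadjusted p of 0.013 and an adjusted p of 0.321 in edgeR, and -0.92 (SE 0.29) with an adjusted p of 0.0295 in DESeq2. The adjusted p ranged from 0.0295 to 0.668 over 15 alternative settings. With single libraries left out, the log2 fold change stayed between -1.09 and -0.74, and the unadjusted p was 0.0501 without WT replicate 1 and lower without any other library. Of the 10 Notch genes, Jag2 passed an unadjusted p of 0.05 in the most settings, 13 of 15, beside 9 of 15 for Notch4.

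Jag1, a Jagged ligand of endothelium, smooth muscle and epithelium, had the steadiest level of the ligands. It was at 38.2, 41.5 and 45.7 CPM in WT lesions and at 45.7, 54.3 and 47.4 CPM in KO lesions. The highest WT and the lowest KO lesion shared 45.7 CPM at this rounding, and the log2 fold change was 0.23 (SE 0.13, adjusted p = 0.421 in edgeR). Dll1, a Delta-like ligand that acts in lymphocyte development, was the least abundant gene of the 10 in both groups. Its values were 2.78, 4.28 and 3.42 CPM in WT lesions and 1.58, 1.15 and 2.96 CPM in KO lesions. Only KO replicate 3 entered the WT range, and the log2 fold change was -0.88 (SE 0.42, adjusted p = 0.369 in edgeR). Dll4, the Delta-like ligand of sprouting endothelium, was at 11.2, 9.25 and 17.6 CPM in WT lesions and at 19.4, 16.8 and 11.3 CPM in KO lesions. The groups overlapped, with a log2 fold change of 0.32 (SE 0.32, adjusted p = 0.636 in edgeR). Thus Dll4 was not lower in the KO lesions in which Notch4 was lowest: KO replicates 1 and 2 had more Dll4 than KO replicate 3.

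The target genes did not separate the groups. Hes1, a transcriptional repressor induced by Notch and by other pathways, was at 23.4, 18.9 and 26.1 CPM in WT lesions and at 34.9, 43.1 and 22.3 CPM in KO lesions. KO replicates 1 and 2 were above every WT lesion, and KO replicate 3 lay inside the WT range. The log2 fold change was 0.55 (SE 0.27, adjusted p = 0.376 in edgeR), and 0.78 without KO replicate 3 (unadjusted p = 0.0112). Hey1, a related repressor of the vascular wall, was at 10.8, 12.5 and 34.6 CPM in WT lesions and at 15.2, 12.6 and 8.88 CPM in KO lesions. WT replicate 3, the library with pancreatic RNA, held the highest Hey1 value, and the log2 fold change of -0.66 (SE 0.5, adjusted p = 0.527 in edgeR) was 0.04 without it.

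Since the endothelial and mural marker sums varied between lesions, each gene was next divided by the summed CPM of 10 endothelial and of 8 mural markers in the same library, and by 2 further lists chosen after the data were seen. The 40 ratios were compared by an exact two-sided permutation test, whose smallest possible p is 0.1 with 3 lesions in each group, so that no ratio could pass 0.05. The groups did not overlap in 7 of the 40 ratios. For plain CPM, 19.4% of all tested genes had no overlap between the groups, and the same share was not computed for ratios. The 40 ratios share genes and marker sums, so they do not count as separate results. Of the endothelial list, 0 of 10 markers were lower at an unadjusted p under 0.05, with a median log2 fold change of -0.41. Notch4 amounted to 5.01, 7.05 and 5.21% of the endothelial sum in WT lesions and 2.07, 1.93 and 3.22% in KO lesions. All KO ratios were below all WT ratios, KO replicate 3 included, with a log2 difference of -1.28 (exact p = 0.1) that stayed between -1.51 and -1.12 with single libraries left out. The groups were also apart when Notch4 was divided by the mural sum (log2 difference -1.24) or by the macrophage sum (-0.88), and overlapped when it was divided by the uterine epithelial sum (-2.1). Dll1 made up 0.49, 0.643 and 0.607% of the endothelial sum in WT lesions and 0.408, 0.418 and 0.419% in KO lesions. Its KO ratios were nearly equal to each other and below all WT ratios, with a log2 difference of -0.47 (exact p = 0.1). Dll1 was also apart against the mural sum (-0.43), and overlapped against the macrophage sum (-0.08, exact p = 0.7). The remaining ratios without overlap were that of Jag1 to the mural sum, higher in KO lesions (log2 difference 0.77), and that of Hey1 to the epithelial sum, lower in KO lesions (-0.81).

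Dll4 and Hes1 had another pattern. Hes1 was 4.13, 2.84 and 4.63% of the endothelial sum in WT lesions and 9.02, 15.6 and 3.15% in KO lesions, which overlapped (log2 difference 1.01, exact p = 0.3). Against uterine epithelial markers, from which Ovgp1 was left out because it reached 4100 CPM in KO replicate 2, Hes1 was 1.3, 1.11 and 1.01% in WT lesions and 1.08, 1.45 and 1.39% in KO lesions. The spread between libraries was smaller on this scale, with a log2 difference of 0.19. Dll4 was 0.625, 0.545 and 0.679% of the same epithelial sum in WT lesions and 0.602, 0.563 and 0.7% in KO lesions. The 6 Dll4 ratios were thus close to each other across both genotypes (log2 difference 0.01), whereas those to the endothelial sum ran from 1.39 to 6.08%. Jag2 was 0.673, 0.59 and 0.309% of the epithelial sum in WT lesions and 0.133, 0.226 and 0.319% in KO lesions. The Jag2 ratios overlapped, since KO replicate 3 passed WT replicate 3, with a log2 difference of -1.23 (exact p = 0.2). They also overlapped against the endothelial sum (log2 difference -0.41, exact p = 0.5), the mural sum (-0.36, exact p = 0.6) and the macrophage sum (-0.01, exact p = 1). The groups were thus not apart in Jag2 relative to any of the 4 lists. With single libraries left out, the log2 difference was -1.57 to -0.89 against the epithelial sum and -0.89 to -0.01 against the endothelial sum. It was -0.88 to -0.02 against the mural sum and -0.48 to 0.38 against the macrophage sum. Overlap of these ratios does not show that Jag2 did not differ. The epithelial sum itself was 1800, 1700 and 2590 CPM in WT lesions and 3220, 2980 and 1610 CPM in KO lesions, and 0 of its 9 markers were higher or lower at an unadjusted p under 0.05.

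**Figure D4:**
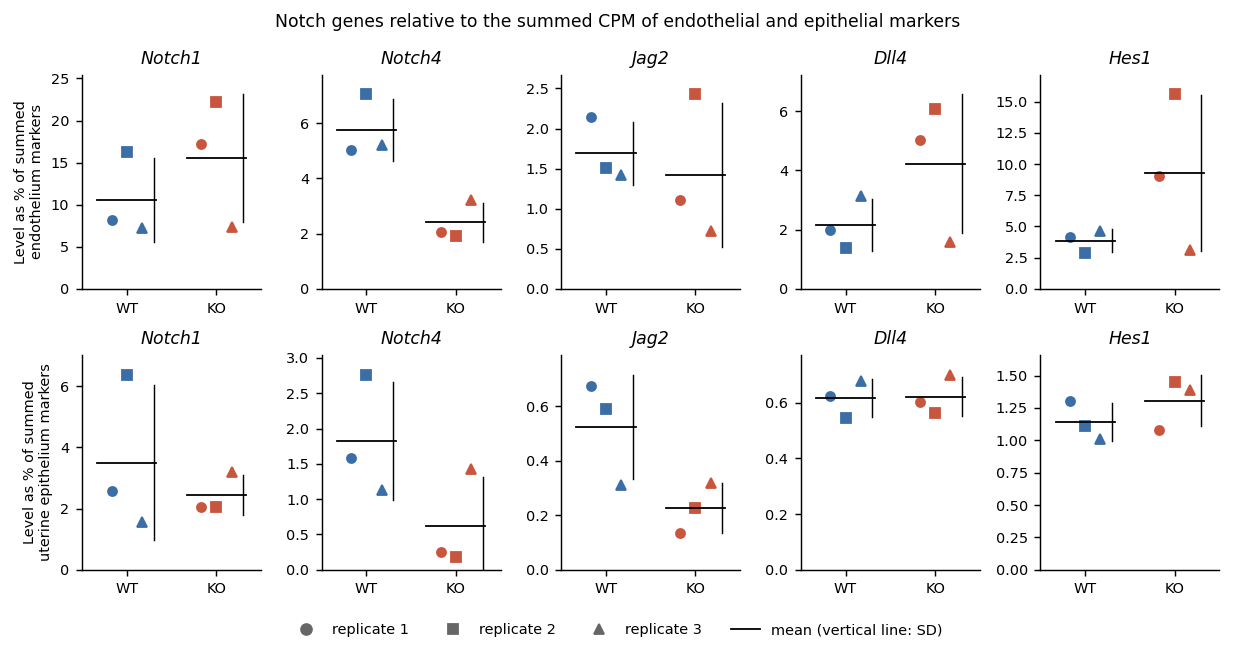
Level of Notch1, Notch4, Jag2, Dll4 and Hes1 as a percentage of the summed CPM of endothelial markers (upper row) and of uterine epithelial markers without Ovgp1 (lower row) in each lesion, with group mean and SD. Relative to endothelium, Notch4 is below 3.3% in all KO lesions and above 5% in all WT lesions; relative to epithelium, Dll4 is between 0.545 and 0.7% in all 6 lesions.

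To compare the genes with each other, CPM was divided by exon length in kilobases. By the mean of WT lesions Notch2 was highest (14.3 CPM per kb), followed by Hes1 (11.2), Jag1 (7.18), Hey1 (5.92), Notch1 (4.57), Notch4 (4.32), Dll4 (3.3), Notch3 (2.95), Jag2 (1.44) and Dll1 (0.827). The first rank of Notch2 came from WT replicate 2. Notch2 was at 7, 29.7 and 6.1 CPM per kb and Hes1 at 11.5, 9.28 and 12.8, so Hes1 was above Notch2 in WT replicates 1 and 3. Neighbors in this order overlapped over the 3 lesions, except that Hes1 was above Jag1, Notch3 above Jag2 and Jag2 above Dll1 in all of them. In KO lesions the order was Hes1 (16.4), Jag1 (8.43), Notch2 (5.74), Notch1 (4.2), Dll4 (4.1), Hey1 (3.74), Notch3 (2.3), Notch4 (1.49), Jag2 (0.772) and Dll1 (0.45). Only the steps from Hes1 to Jag1 and from Jag1 to Notch2 were free of overlap there. Notch4 thus stood sixth among the genes in WT lesions and eighth in KO lesions on the per-length scale.

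The receptors together summed to 16.7, 46.3 and 15.3 CPM per kb in WT lesions and to 11.4, 12.5 and 17.3 CPM per kb in KO lesions (exact permutation p = 0.3). The per-length level of Notch1 itself was 3.25, 7.6 and 2.86 CPM per kb in WT lesions and 4.66, 4.31 and 3.62 CPM per kb in KO lesions. The averages, 4.57 in WT and 4.2 in KO lesions, rested on WT replicate 2, as the other WT lesions were below every KO lesion. A larger share of Notch1 in KO lesions therefore does not by itself give the direction of its level. Notch1 made up 19.4, 16.4 and 18.7% of the summed per-length level of the 4 receptors in WT lesions and 40.9, 34.4 and 21% in KO lesions. The groups did not overlap (exact p = 0.1), although KO replicate 3 was close to the WT lesions. The Notch4 share was 21, 12.6 and 23.7% in WT and 8.72, 5.27 and 16.3% in KO lesions and overlapped through WT replicate 2, where Notch2 took 64.2%. Among the 4 ligands, Jag1 held the largest share in every lesion, 54.6 to 59.5% in WT and 56.5 to 65.1% in KO lesions. Jag2 took 14.6, 12 and 8% of the ligand sum in WT lesions and 4.45, 6.47 and 5.89% in KO lesions, again without overlap (exact p = 0.1). The ligand sum as a whole was 12.7 ± 1.41 CPM per kb in WT and 13.8 ± 1.21 CPM per kb in KO lesions (n = 3 each, exact permutation p = 0.3).

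Some Notch genes followed each other from library to library. Over the 6 libraries, Pearson's r of log2 CPM was 0.99 between Notch4 and Dll1 and 0.87 between Notch4 and Notch3. Hes1 ran the other way, with r of -0.96 to Notch4, -0.96 to Dll1 and -0.89 to Notch3. Notch4 had an r of 0.98 to the T cell, 0.92 to the endothelial, 0.92 to the macrophage, 0.89 to the stromal and 0.87 to the mural sum. Hes1 had an r of -0.97 to the endothelial, -0.95 to the macrophage, -0.94 to the T cell and -0.92 to the stromal sum. To the uterine epithelial sum without Ovgp1, Hes1 had an r of 0.88. High values were thus not particular to a single cell type. Notch2 had an r of 0.94 to the neutrophil sum and 0.96 to the B cell sum. These values describe 6 libraries that share the genotype division and differ in their mixture of cells, and no test was made of them.

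The remaining pathway was described with a list of 59 genes by role, of which 53 passed the filter. None of the 53 passed an adjusted p of 0.05 in edgeR, while 3 were lower and 0 were higher in KO lesions at an unadjusted p under 0.05, against 8.16% and 6.55% of all tested genes. By DESeq2, 3 of them passed an adjusted p of 0.05, namely Neurl1a, Dtx3l and Tle4, all lower in KO lesions, against 4.04% of all tested genes called lower and 6.26% in either direction. The median log2 fold change of the 53 genes was -0.03, with 30 below zero. Dtx3l, a ubiquitin ligase of the Deltex family that acts with Parp9 in the interferon response, was at 118, 154 and 119 CPM in WT lesions and 85.5, 77.4 and 89 CPM in KO lesions. The groups were apart, with a log2 fold change of -0.63 (SE 0.15, unadjusted p = 0.00574, adjusted p = 0.321 in edgeR). Tle4, a Groucho family corepressor recruited by Hes proteins, was at 16.7, 21.6 and 16.9 CPM in WT lesions and 8.98, 12.4 and 12.2 CPM in KO lesions. Its groups were apart too, with a log2 fold change of -0.72 (SE 0.2, unadjusted p = 0.0113, adjusted p = 0.321 in edgeR). Of the 53 genes, 3 had no overlap between the groups, against 19.4% of all tested genes. The third was Mib2, higher in KO lesions (log2 fold change 0.15, SE 0.12, unadjusted p = 0.272 in edgeR).

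Neurl1a, a ubiquitin ligase for Notch ligands, had the largest fold change of the pathway list. It was at 47.6, 1.87 and 33.2 CPM in WT lesions and at 1.68, 4.37 and 2.27 CPM in KO lesions. The high values were those of WT replicates 1 and 3, the libraries with skeletal muscle RNA, and WT replicate 2 lay within the KO range. Its log2 fold change was -3.31 (SE 1.11, unadjusted p = 0.0242, adjusted p = 0.328 in edgeR) over all libraries and 0.55 against WT replicate 2 alone.

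In the other role groups, the gene with the largest fold change did not pass an unadjusted p of 0.05 in edgeR. Nrarp, a Notch-induced inhibitor of Notch signaling, was at 4.83, 13.3 and 5 CPM in WT lesions and 3.33, 2.42 and 5.42 CPM in KO lesions (log2 fold change -1.05, SE 0.52, unadjusted p = 0.0924, adjusted p = 0.379 in edgeR). Lfng, a fringe glycosyltransferase that modifies the receptors, was at 16.5, 35.8 and 16.3 CPM in WT lesions and 10.8, 10.2 and 18.9 CPM in KO lesions (log2 fold change -0.78, SE 0.41, unadjusted p = 0.107, adjusted p = 0.397 in edgeR). Rbpj, the DNA-binding partner of the receptor intracellular domain, was at 90.9, 151 and 80.9 CPM in WT lesions and 75.6, 75.3 and 103 CPM in KO lesions (log2 fold change -0.35, SE 0.28, unadjusted p = 0.259, adjusted p = 0.553 in edgeR). In each of these genes WT replicate 2 had the highest value and KO replicate 3 the highest KO value. Furin, the protease that processes the receptors during maturation, had a log2 fold change of -0.46 (SE 0.28, unadjusted p = 0.144, adjusted p = 0.437 in edgeR), and Dner, a noncanonical ligand with at most 30 counts in a library, one of -0.59 (SE 0.85, unadjusted p = 0.512, adjusted p = 0.746 in edgeR). Of the 8 nuclear activator genes, 7 had a log2 fold change below zero, with a median of -0.16, and 0 of them passed an unadjusted p of 0.05. Of all tested genes, 48.6% were below zero. Nuclear activators had the highest share below zero among role groups with more than 1 tested gene. That share was 25% for other targets and 40% each for proteases and glycosylation genes. The targets Hes5 and Hes7 were near or at 0 counts in all libraries, with at most 2 and 4 counts in a library.

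**Figure D5:**
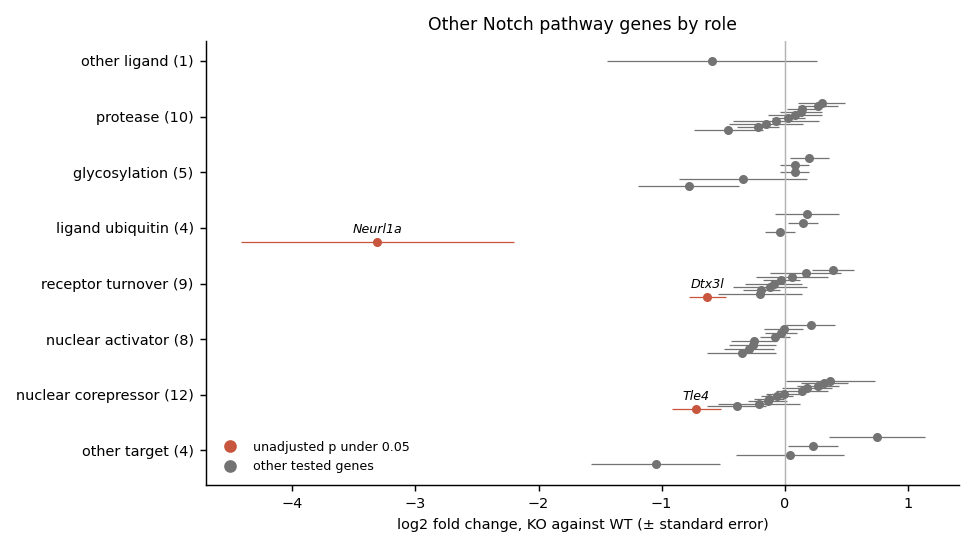
Log2 fold change, KO against WT, with standard error, of the 53 tested genes of the wider pathway list, grouped by role with the number of genes in parentheses. Neurl1a (-3.31), Dtx3l (-0.63) and Tle4 (-0.72) have an unadjusted p under 0.05, and the other genes scatter around zero.

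Because Dnmt3a methylates cytosines that precede guanine (CG), the sequence around the transcription start was examined for the Notch genes. The RefSeq table (build GRCm38.p6) held windows of 250 bases before to 50 bases after the start for 8 of the 10 genes, and for neither Hes1 nor Hey1. The windows of Notch4 and Jag2 are shown with each CG in capitals, because these were the genes with an unadjusted p under 0.05, a choice made after their values were seen. The Notch4 window is at chr17:34564045-34564344 on the + strand and the Jag2 window at chr12:112929446-112929745 on the - strand.
Notch4: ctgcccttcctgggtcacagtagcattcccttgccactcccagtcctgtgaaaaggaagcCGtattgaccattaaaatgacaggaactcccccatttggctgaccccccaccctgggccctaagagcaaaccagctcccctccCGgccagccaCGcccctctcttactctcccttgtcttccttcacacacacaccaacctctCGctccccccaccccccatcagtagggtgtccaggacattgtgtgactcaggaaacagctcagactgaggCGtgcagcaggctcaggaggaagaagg
Jag2: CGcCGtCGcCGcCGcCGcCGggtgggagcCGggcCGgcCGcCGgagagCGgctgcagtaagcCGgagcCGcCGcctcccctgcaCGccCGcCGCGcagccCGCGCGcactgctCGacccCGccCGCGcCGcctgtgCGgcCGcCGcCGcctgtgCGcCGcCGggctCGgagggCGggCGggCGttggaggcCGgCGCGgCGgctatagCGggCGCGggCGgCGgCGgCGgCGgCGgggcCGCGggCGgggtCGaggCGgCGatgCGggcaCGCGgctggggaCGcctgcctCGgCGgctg
The Notch4 window held 5 CG, the fewest among the windows of the 8 genes, beside a median of 7 over all 32851 windows in the table. The Jag2 window held 63 CG, the most among them, and 0.03% of all windows held as many. The windows of the other genes held from 15 to 41 CG. TGGGAA, the core letters of the Rbpj motif, occurred on either strand in 0 of the 9 windows of Notch genes (Dll1 has more than 1 window) and in 25.6% of all windows. The CG counts describe the reference sequence only, and methylation was not measured in these libraries.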

How the data were processed

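Total RNA of whole ectopic lesions was made into TruSeq Stranded mRNA libraries. The deposited values are raw counts of reads per gene, made by the authors with read trimming and featureCounts; the submitters' processing notes name Trimmomatic, featureCounts and DESeq2. The notes give GRCm39 and the study's methods GRCm38 as the genome, and the aligner and annotation release are not given in the sources used here. Genes are therefore given without coordinates, apart from the RefSeq windows around a transcription start, which are on GRCm38.p6. Gene symbols and exon lengths came from GENCODE M21, in which 51948 of 56884 identifiers were found after version numbers were removed. Identifiers without a symbol held 3.04 to 3.56% of the counts. The per-library files held the same values as the series table.

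The 3 KO and 3 WT libraries were compared with edgeR 4.0.16 (R 4.3.3): filterByExpr (minimum count 10) kept 18177 genes, TMM factors were 0.962 to 1.05, and the quasi-likelihood test was adjusted by Benjamini-Hochberg over all genes tested. The common biological coefficient of variation was 44.2%. CPM values are counts divided by the TMM-scaled totals of the genes kept. DESeq2 1.42.0, limma 3.58.1 (voom with sample quality weights), other scalings, other filters, a replicate block and the omission of each library served as alternatives. The code was tested on simulated counts. With 3 lesions per group, the precision was limited by the spread between lesions and not by depth for genes at these counts.

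The 10 Notch genes, the pathway list and the marker lists were chosen with earlier results of these data known. The genes named were all 10 Notch genes, each pathway gene with an unadjusted p under 0.05 and the pathway gene with the largest fold change in each role group. Hes5, Hes7, Hey2, Heyl, Dlk1, Rbpjl, Mib2 and the opposite-strand transcripts were named besides, after their values were seen. Promoter windows were to be printed for Notch genes with the most TGGGAA matches. As no window held a match, those of Notch4 and Jag2 were printed instead.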

Additional observations from a re-analysis of the deposited data

How the results depend on the processing

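Of the 10 Notch genes, 8 kept the sign of their log2 fold change under all 15 alternatives. Notch1 turned from -0.12 to 0.44 with limma voom and to 0.02 with the replicate block, and with single libraries left out it ranged from -0.40 to 0.46. Hey1 turned from -0.66 to 0.04 without WT replicate 3 and ranged down to -0.95 without WT replicate 1. Against WT replicate 2 alone, an alternative chosen after the data were seen, as was robust prior estimation, and one in which the lone WT lesion is assumed to vary like the KO lesions, Neurl1a turned to 0.55 and Dner to 2.42. The count of Notch genes with an adjusted p under 0.05 was 0 under every alternative but the DESeq2 Wald test, which gave 1 (Jag2). The count lower at an unadjusted p under 0.05 was 4 with limma voom and 0 to 4 with single libraries left out, and the count higher was 1 with limma voom, 1 with upper quartile scaling and 0 to 1 with single libraries left out. The count with a log2 fold change beyond 1 as well was 2 with limma voom and 0 to 2 with single libraries left out. With upper quartile scaling the median over all tested genes was 0.11 on the log2 scale.

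For the other pathway genes, DESeq2 gave 3 at an adjusted p under 0.05 and leaving out single libraries gave 0 to 1. At an unadjusted p under 0.05, limma voom gave 6 higher and 5 lower, upper quartile scaling gave 1 higher, the comparison with WT replicate 2 alone gave 10 lower, and leaving out single libraries gave 0 to 5 higher and 2 to 5 lower. Of all tested genes, the number with an adjusted p under 0.05 was 1 in the fit over all 6 libraries. It was 1100 with DESeq2 and 12 with limma voom. It was 0 with DESeq2 size factors, upper quartile scaling, the replicate block and WT replicate 2 alone, and 0 to 398 with single libraries left out, the highest being without WT replicate 2. At an unadjusted p under 0.05, the counts higher and lower were 1190 and 1484. The count higher was 1945 with upper quartile scaling, 2596 with limma voom and 499 to 2185 with single libraries left out. The count lower was 2882 with limma voom and 703 to 2366 with single libraries left out. The cause of these changes was not tested.

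Replicate numbers did not mark shared animals in the labels, and the lesions were treated as unpaired. Same-numbered WT and KO libraries deviated with correlations of 0.03, -0.15 and -0.20, and differently numbered ones with -0.15 to 0.23. So few values cannot exclude a pairing. With the replicate block, 613 genes were higher and 787 lower at an unadjusted p under 0.05, and the lowest adjusted p of a Notch gene was 0.63. The ratio of Notch4 to the endothelial sum (log2 difference -1.28) moved to -2.1 with uterine epithelial markers and to -0.88 with macrophage markers. An adjusted p that missed 0.05 does not show that a Notch gene did not differ.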

Other observations

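Transcripts on the opposite strand of Notch genes were examined after the data were seen, as raw counts and with no test. Gm14207, whose exons share 214 bases with Dll4 on the opposite strand, had 30, 36 and 30 counts in WT lesions and 80, 155 and 26 counts in KO lesions. KO replicates 1 and 2 were thus above every WT lesion and KO replicate 3 below them, the same division of the KO lesions as in Hes1. 0610009E02Rik, which shares 1068 exon bases with Notch1 on the opposite strand, had 20, 21 and 16 counts in WT lesions and 31, 52 and 18 counts in KO lesions. Gm17276, opposite to Notch3, had 5, 18 and 4 counts in WT lesions and 15, 17 and 4 counts in KO lesions.

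Some Notch pathway genes lay below the filter on low counts. Dlk1, a noncanonical ligand, had 48, 2 and 42 counts in WT lesions and 2, 6 and 6 counts in KO lesions, with the higher values in the WT libraries that also held skeletal muscle RNA. Rbpjl, a homolog of Rbpj that acts in pancreatic acinar cells, had 20 counts in WT replicate 3, the library with acinar markers, and 6 counts or fewer in every other library.

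Other targets of the pathway did not follow Hes1 in every lesion. Hey2, a repressor of the vascular wall, was at 2.01, 1.35 and 1.37 CPM in WT lesions and 2.75, 3.62 and 1.6 CPM in KO lesions, with KO replicates 1 and 2 highest as for Hes1 (log2 fold change 0.75, SE 0.39, unadjusted p = 0.0988, adjusted p = 0.387 in edgeR). Heyl, a target in vascular smooth muscle, was at 9.86, 6.37 and 9.89 CPM in WT lesions and 5.93, 5.84 and 15.1 CPM in KO lesions. KO replicate 3 had the highest Heyl value of all libraries and the lowest Hes1 value of the KO lesions.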
